A study of Mus musculus with 14 samples.

Results

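The response of the Rbbp5-deleted mouse liver to a low dose of tunicamycin was measured by RNA sequencing in 8 liver libraries, out of 14 in the whole series. These were the 4 libraries of liver-knockout mice (LKO) injected with tunicamycin and the 4 of LKO mice injected with vehicle, chosen by their labelled genotype and treatment. Counts of vehicle libraries 3 and 4 were nearly as close as sampling alone allows, with a chi-square per degree of freedom of 1.12 where all other pairs within a group had at least 3.30, so they were summed and counted as 1 sample, vehicle 3+4. The comparison therefore rested on 4 tunicamycin and 3 vehicle samples and is described over the 9644 genes that passed a filter on low counts.

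All LKO mice carried Rbbp5 (flox/flox) with 1 copy of Alb-CRE, and their wild-type (WT) littermates carried Rbbp5 (flox/flox) without Cre. All were males of 5 to 7 months. Tunicamycin was injected into the peritoneum between 9 and 10 in the morning, at 0.05 mg per kg body weight in 500 µl of 3% DMSO in PBS, and the vehicle was the same DMSO in PBS without drug. Livers were taken 8 hours later. The albumin promoter drives Cre in hepatocytes, so other liver cells keep the gene, and which exons are flanked by loxP sites is not given in the sources used here. The 3 WT vehicle and 3 WT tunicamycin samples entered the same fit, so they share in the estimate of the spread behind the LKO p-values, and the WT response is given beside that of LKO.

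RBBP5 works with WDR5, ASH2L and DPY30 as the shared core of the SET1 and MLL enzyme complexes, which place methyl groups on lysine 4 of histone H3 (H3K4), a mark of active promoters. Tunicamycin blocks the first step of N-linked glycosylation, so that glycoproteins misfold in the endoplasmic reticulum (ER). The cell answers with the unfolded protein response, in which the sensors IRE1, PERK and ATF6 raise chaperones, glycan and export machinery through XBP1, ATF4 and cleaved ATF6, and in the liver also dampen metabolic genes.

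Reads assigned to genes ranged from 7341117 to 13519421 in the LKO libraries, of which 72.5% to 73.7% fell on the ribosomal RNA gene Rn45s, so that 1958093 to 3551398 reads were left for other genes. Values below are CPM, reads scaled to a common total of all gene reads after TMM scaling, Rn45s included. The share of reads on no annotated feature was 27.9% to 28.5% in the LKO vehicle libraries and 26.4% to 27.3% in the LKO tunicamycin libraries, without overlap, and its part in the results was not tested. Rbbp5 (chr1:132477348-132505665, GRCm38) stood at 4.14, 1.90 and 2.78 CPM in LKO vehicle and 2.79, 3.12, 3.46 and 2.06 CPM in LKO tunicamycin, against 4.06 to 6.40 CPM in the 6 WT samples. Its LKO level was lower than WT by a log2 fold change of -0.87 ± 0.26 (SE) in vehicle and -0.90 ± 0.25 in tunicamycin, which did not pass adjustment over all genes (edgeR, adjusted p = 0.329 and 0.105).

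The LKO vehicle samples differed among themselves. On the first principal component of the LKO samples, which held 37.8% of the variance, vehicle 1 and vehicle 3+4 lay at -14.6 and -20.3, the tunicamycin samples lay between 2.92 and 14.03, and vehicle 2 lay between them at -0.98. Vehicle 2 also carried high levels of acute-phase transcripts, given below, and the count without it is given for several gene groups. The labels do not say how library numbers relate to mice or processing days, so p-values measure the spread between these samples.

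Few single genes passed the test after adjustment. Tunicamycin lowered 1 gene, Dusp1, and raised 2, Fabp5 and Gabbr2, in the LKO liver (edgeR quasi-likelihood test, Benjamini-Hochberg adjusted p under 0.05), which is 0.0311% of the genes tested. At an unadjusted p under 0.05 the count was 1172 genes, or 12.2%, with 562 higher (5.83%) and 610 lower (6.33%). Scaling by library totals without Rn45s turned that split to 378 higher and 726 lower, with a median over all genes of -0.046 in LKO and -0.12 in WT. The CPM ranges of the groups did not overlap for 485 genes that were higher (5.03%) and 632 that were lower (6.55%). The log2 fold changes had quartiles of -0.16 and 0.18 around a median of 0.0045, which TMM scaling sets near 0. A change of at least 2-fold was fitted for 88 higher and 62 lower genes, of which 74 and 55 had an unadjusted p under 0.05.

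A fit on the LKO samples alone also called 3 genes, of which Dusp1 was shared, while Fabp5 and Gabbr2 were not called. The others, named after their values were seen, were the citrate transporter gene Slc13a5 (log2 fold change 1.98) and the carbonic anhydrase gene Car3 (-1.80). The number of calls also turned on single libraries. Leaving out WT tunicamycin 3, which enters through the shared estimate of the spread, gave 67 LKO calls. Leaving out LKO vehicle 2 gave 9, and leaving it out of a fit on the LKO samples alone gave 133. Dusp1 was among the calls in both, Gabbr2 in both and Fabp5 only in the latter. No gene was called without any 1 of LKO vehicle 1, LKO vehicle 3+4, LKO tunicamycin 1, 2 or 3, WT vehicle 1 or WT vehicle 3, and 2 genes were called without LKO tunicamycin 4 or WT tunicamycin 2. DESeq2 called 35 genes on the same counts, none of them among the 3.

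Dusp1 encodes a nuclear phosphatase that switches off the stress kinases JNK and p38 and is an immediate-early and glucocorticoid-induced gene. It lies at chr17:26505591-26508472. It stood at 7.33, 6.12 and 11.7 CPM in LKO vehicle and at 2.26, 2.47, 2.34 and 3.04 CPM in LKO tunicamycin, from 17 to 198 reads a sample. All 4 tunicamycin samples lay below all 3 vehicle samples. The mean went from 8.40 ± 2.95 CPM (SD, n = 3) to 2.53 ± 0.350 CPM (SD, n = 4). The log2 fold change was -1.74 ± 0.25 (SE), a 3.35-fold lower level (edgeR, adjusted p = 0.0269). In WT liver it also fell by 1.89 on the log2 scale (adjusted p = 0.0170). The 250 bases before the RefSeq start of Dusp1, chr17:26508473-26508722 on the minus strand, are shown because Dusp1 had the lowest p, with capitals marking a cyclic AMP response element (TGACGTCA) and an E-box (CACGTG).
Dusp1: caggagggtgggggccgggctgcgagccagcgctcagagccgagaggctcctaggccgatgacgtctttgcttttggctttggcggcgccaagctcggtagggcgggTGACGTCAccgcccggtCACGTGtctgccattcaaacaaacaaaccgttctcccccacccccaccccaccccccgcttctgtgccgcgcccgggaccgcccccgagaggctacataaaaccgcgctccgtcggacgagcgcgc
The response element begins 143 bases before the start and the E-box 126 bases before it. Searched on both strands, the first motif was in 1.55% of 32851 RefSeq windows of the same 250 bases and the second in 6.02%.

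Fabp5 encodes a cytosolic carrier of fatty acids that is low in normal hepatocytes and abundant in skin, fat and macrophages. It lies at chr3:10012585-10016610 and has processed copies in the genome, so some of its reads may have been left unplaced. It stood at 5.68, 4.45 and 4.32 CPM in LKO vehicle and at 12.5, 13.4, 8.44 and 8.24 CPM in LKO tunicamycin. The groups did not overlap, and tunicamycin 1 and 2 stood above 3 and 4. The log2 fold change was 1.15 ± 0.19 (SE), a 2.22-fold rise (adjusted p = 0.0346). In WT liver the fitted change was 0.14 ± 0.23, with a difference between genotypes of 1.02 ± 0.29 that did not pass adjustment (unadjusted p = 0.00297, adjusted p = 0.937).

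Gabbr2 encodes a subunit of the GABA type B receptor, best known from neurons, and lies at chr4:46662318-46991714. It stood at 6.39, 8.38 and 8.29 CPM in LKO vehicle and at 15.3, 13.5, 13.5 and 13.7 CPM in LKO tunicamycin. Samples within each group lay close together, with an SD of 1.13 CPM in vehicle and 0.868 CPM in tunicamycin, and the groups did not overlap. The log2 fold change was 0.84 ± 0.13 (SE), a 1.80-fold rise (adjusted p = 0.0311). The fitted WT change was 0.30 ± 0.16 (adjusted p for the difference between genotypes 0.937).

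**Figure D1:**
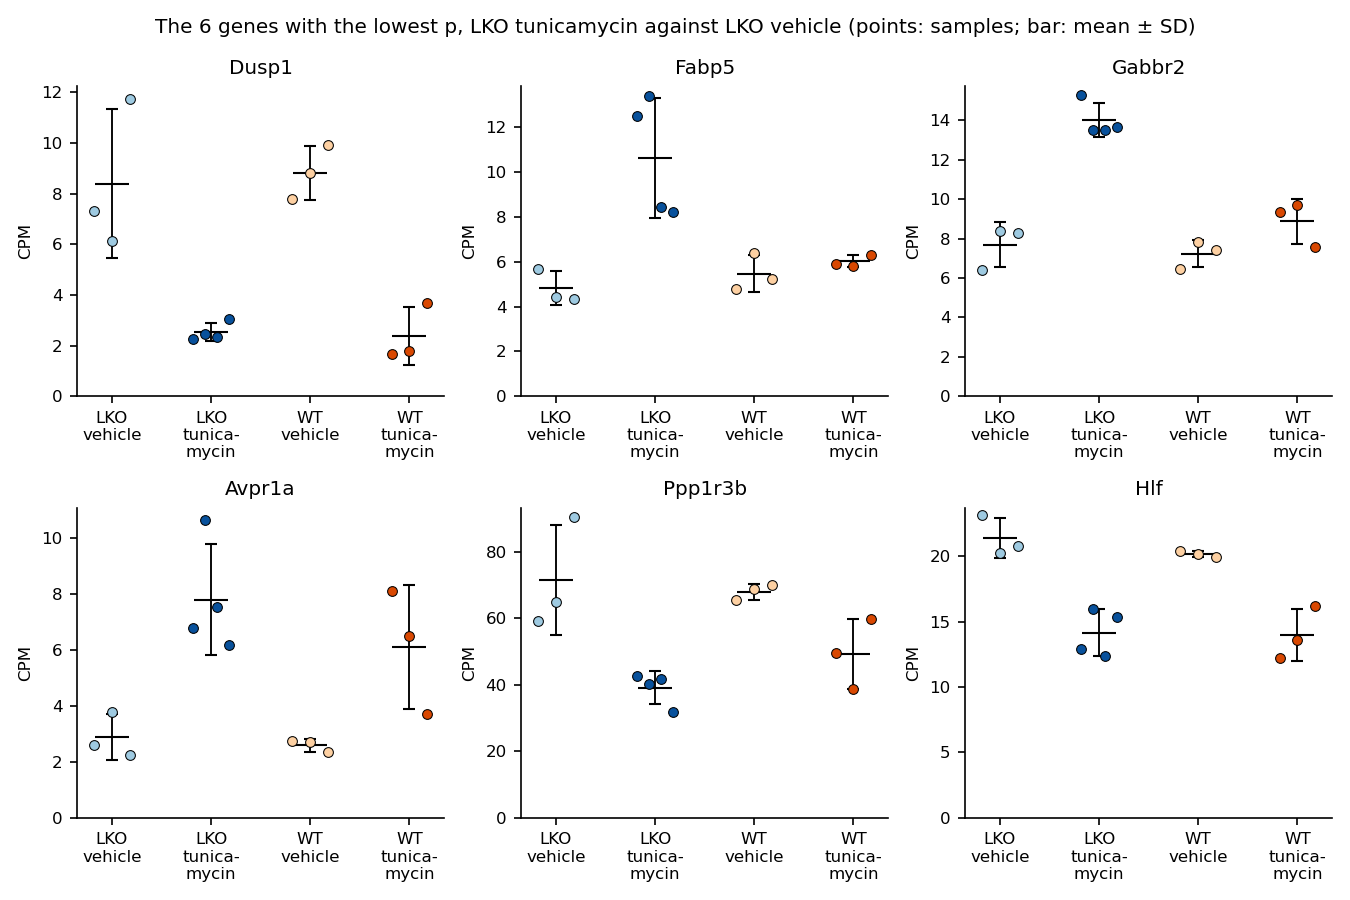
CPM (linear axis from 0) of 6 genes in each sample of the 4 groups, with the mean and SD. Dusp1, Ppp1r3b and Hlf are lower and Fabp5, Gabbr2 and Avpr1a higher in all 4 LKO tunicamycin samples than in any LKO vehicle sample, and the WT samples of Fabp5 lie between 4.78 and 6.40 CPM whatever the treatment.

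The next genes by p missed adjustment. Avpr1a, the hepatic vasopressin receptor, stood at 2.60, 3.79 and 2.25 CPM in LKO vehicle and 6.78, 10.7, 7.53 and 6.18 CPM in LKO tunicamycin (log2 fold change 1.42 ± 0.25, adjusted p = 0.0768). Ppp1r3b, which brings protein phosphatase 1 to glycogen and favours glycogen synthesis, stood at 59.1, 65.0 and 90.5 CPM against 42.7, 40.1, 41.7 and 31.9 CPM (-0.88 ± 0.16, adjusted p = 0.0920). Among the 12 higher genes with the lowest p whose groups did not overlap were the tight-junction gene Cldn1 (1.26 ± 0.29), the virus receptor and junction gene Cxadr (0.48 ± 0.11), the tetraspanin Cd9 (0.96 ± 0.21), the death receptor Fas (0.81 ± 0.20), the steroid enzyme Cyp17a1 (2.64 ± 0.65) and the acute-phase gene Saa3 (2.47 ± 0.61). Nav2, Psen2 and Sel1l3 made up the remainder, with log2 fold changes of 0.85, 0.64 and 0.58. Among the 12 lower genes were the clock output gene Hlf (-0.59 ± 0.12), the xenobiotic enzymes Cyp2a5 (-2.16 ± 0.45) and Cyp2f2 (-0.66 ± 0.15), the sarcosine-degrading enzyme Sardh (-0.64 ± 0.13), the glucocorticoid-induced repressor Zbtb16 (-1.73 ± 0.37), the clock-linked protease Usp2 (-1.21 ± 0.27) and the lipase Lipg (-1.71 ± 0.39). Ugt1a6a, Agpat6 and Pecr followed at -0.93, -0.66 and -0.59. Without vehicle 3+4, the highest vehicle sample for Zbtb16 at 27.0 CPM, its fitted change was -0.79. Cyp17a1 was at 1.98 without tunicamycin 3. Cyp2a5 and Ugt1a6a share near-identical sequence with neighbours, which makes their assignment less certain.

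The ER stress response of the LKO liver was small. Of 11 tested ER stress markers, 2 stood higher at an unadjusted p under 0.05, against 5.83% of all genes, and none passed adjustment, with a list median of 0.45 on the log2 scale. Hspa5, the ER chaperone BiP, stood at 127, 116 and 173 CPM in LKO vehicle and 228, 142, 181 and 207 CPM in LKO tunicamycin. Tunicamycin 2 lay inside the vehicle range, and the fitted change was 0.45 ± 0.27 (adjusted p = 0.544). Hsp90b1, the ER HSP90 also called GRP94, stood at 209, 275 and 236 CPM against 315, 245, 276 and 316 CPM, a fitted 0.26 ± 0.19 (adjusted p = 0.632). The groups overlapped again, and tunicamycin 2 was again the lowest treated sample. Sdf2l1, a BiP cofactor, stood at 2.48, 6.85 and 4.68 CPM against 10.6, 7.28, 8.14 and 7.80 CPM, without overlap (0.80 ± 0.25, unadjusted p = 0.00578, adjusted p = 0.247). Pdia4, an ER disulfide isomerase, had a fitted 0.47 ± 0.20 (adjusted p = 0.366).

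Markers of the PERK and IRE1 arms did not pass the test either. Xbp1 stood at 52.3, 47.2 and 34.5 CPM in LKO vehicle and 47.4, 50.4, 47.4 and 49.97 CPM in LKO tunicamycin (0.13 ± 0.15), and Atf4 had a fitted 0.02 ± 0.20. The CHOP gene Ddit3 had 0.473, 0.437 and 0.829 CPM in vehicle against 0.399, 0.390, 2.03 and 0.867 CPM. Only tunicamycin 3 stood clearly above the vehicle range there, and without it the fitted change was -0.09. Trib3 (1.07 ± 0.86), Asns (0.91 ± 0.87), Dnajb9 (-0.14 ± 0.28) and Herpud1 (-0.36 ± 0.30) did not pass, and Atf3, with at most 2 reads in any LKO sample, was not tested.

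In WT liver 8 of the 11 were higher at an unadjusted p under 0.05, against 7.92% of all genes higher and 6.86% lower, with a median of 1.27. The rise was uneven: relative to WT vehicle, the list medians of WT tunicamycin 1, 2 and 3 were 1.53, 0.52 and 1.46. Ddit3 stood at 26.2, 1.29 and 20.3 CPM in these samples, against 0.640 to 1.89 CPM in WT vehicle. Hspa5 stood at 196, 210 and 252 CPM in WT vehicle and 853, 313 and 784 CPM in WT tunicamycin, and rose by 1.56 ± 0.29 on the log2 scale (adjusted p = 0.0390). The LKO log2 fold change was below that of WT for 10 of the 11 markers, all but Asns, and Herpud1 was negative in LKO (-0.36) and positive in WT (0.23). The difference had an unadjusted p under 0.05 for 6, against 4.91% of all genes, and no gene in the genome passed adjustment for it (edgeR, 474 genes at an unadjusted p under 0.05, smallest adjusted p 0.937). For Pdia4 the difference was -1.16 ± 0.29 (unadjusted p = 0.00110), for Hsp90b1 -1.005 ± 0.274 (unadjusted p = 0.00197) and for Hspa5 -1.11 ± 0.39 (unadjusted p = 0.0108).

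**Figure D2:**
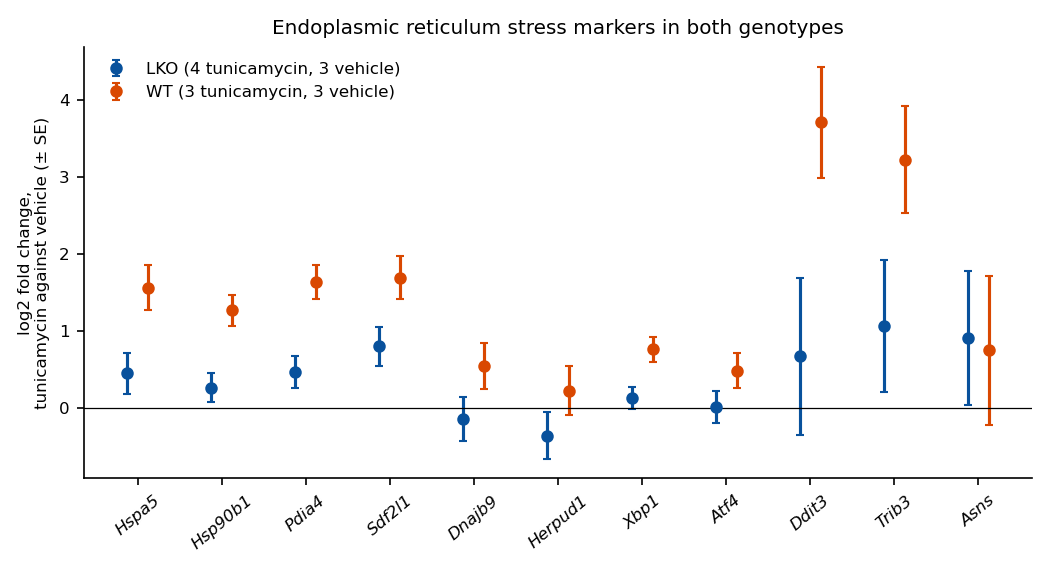
Log2 fold change of tunicamycin against vehicle with its standard error for 11 ER stress markers in LKO (blue) and WT (orange) liver. The LKO point lies below the WT point for every marker but Asns, and LKO Hspa5 sits at 0.45 against 1.56 in WT.

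Lists of the wider ER machinery had a few members higher in LKO liver. Of 23 ER chaperones and lectins, 7 stood higher at an unadjusted p under 0.05 (30.4% against 5.83% of all genes) and none lower. Their median was 0.20 (WT median 0.69, with 15 higher, against 7.92% of all genes in WT). The 4 with the lowest p were Calu (0.53 ± 0.15), Sdf2l1, the disulfide reductase Dnajc10 (0.44 ± 0.16) and Hspa13 (0.46 ± 0.18). Without LKO vehicle 1 the count was 2, without tunicamycin 1 it was 3, without vehicle 3+4 it was 4 and without vehicle 2 it was 8. Among 34 genes of N-glycan assembly and trimming, the process that tunicamycin blocks, 5 stood higher and none lower, led by the oligosaccharyltransferase subunits Rpn1 (0.38 ± 0.11), Ostc (0.43 ± 0.15), Ddost (0.32 ± 0.13) and Stt3b (0.29 ± 0.12). That count was 1 without vehicle 1, 2 without tunicamycin 1 and 2 when libraries were scaled without Rn45s. Of 43 genes of the translocon and coat vesicles, 6 stood higher and none lower (3 when scaled without Rn45s), led by Tmed9 (0.45 ± 0.14), Sec61g (0.77 ± 0.25), Sec61a1 (0.36 ± 0.12) and Tmed10 (0.31 ± 0.12).

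Most other arms of protein quality control showed fewer members past the unadjusted threshold. None of 25 genes of ER-associated degradation, none of 13 sensors and regulators of the unfolded protein response and none of 38 proteasome genes had an unadjusted p under 0.05. In ER-associated degradation the groups did not overlap for 3 higher genes (12% against 5.03% of all genes) and 1 lower (4% against 6.55%). Of 41 autophagy and lysosome genes 1 stood higher (Ctsl, 0.34 ± 0.14) and 1 lower (Atg3, -0.35 ± 0.10). Of 18 disulfide isomerases and oxidases, Pdia4 stood higher and Ero1l lower (-0.30 ± 0.13). Of 15 tested targets of ATF4 and CHOP (of 27), 2 stood higher, Atf5 (0.54 ± 0.17) and Chac1 (1.20 ± 0.46). That share was 13.3%, against 5.83% of all genes, and the list median was 0.32. Cytosolic heat shock genes went the other way, with 7 of 22 lower (31.8% against 6.33% of all genes) and none higher and a median of -0.25. They were led by Hspa1b (-1.45 ± 0.38) and the HSP70 partner Dnaja1 (-0.37 ± 0.12). The count of 7 was 3 without vehicle 3+4, 3 without tunicamycin 2 and 10 without vehicle 2, and Hspa1b was at -0.78 without vehicle 3+4. Counted once each, the 160 tested genes of the 7 ER lists had 19 members higher and 1 lower in LKO and 68 higher and none lower in WT. Over all genes, 5.83% stood higher and 6.33% lower in LKO, and 7.92% higher and 6.86% lower in WT.

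The ER stress response element, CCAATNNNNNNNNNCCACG, is the site through which ATF6 and XBP1 are known to act. It lay in the 250 bases before the start of 37 of 32851 RefSeq genes (0.113%), and in 7 of the 33 chaperone, lectin, isomerase and oxidase genes that had a window. The windows of Hspa5 (chr2:34771840-34772089, plus strand), Hsp90b1 (chr10:86705445-86705694, minus strand) and Creld2 (chr15:88819396-88819645, plus strand) are shown with the element in capitals, in either orientation, because they carry it and their LKO and WT values are given here.
Hspa5: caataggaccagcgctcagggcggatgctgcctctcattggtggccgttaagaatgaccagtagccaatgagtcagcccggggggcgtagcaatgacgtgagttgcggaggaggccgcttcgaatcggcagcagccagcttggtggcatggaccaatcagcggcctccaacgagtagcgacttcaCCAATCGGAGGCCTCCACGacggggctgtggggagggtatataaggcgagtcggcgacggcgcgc
Hsp90b1: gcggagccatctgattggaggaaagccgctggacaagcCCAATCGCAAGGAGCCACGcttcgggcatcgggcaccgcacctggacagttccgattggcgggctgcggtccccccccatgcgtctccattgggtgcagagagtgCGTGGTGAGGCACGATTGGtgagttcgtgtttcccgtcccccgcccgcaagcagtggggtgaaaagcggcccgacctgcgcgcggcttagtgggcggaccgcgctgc
Creld2: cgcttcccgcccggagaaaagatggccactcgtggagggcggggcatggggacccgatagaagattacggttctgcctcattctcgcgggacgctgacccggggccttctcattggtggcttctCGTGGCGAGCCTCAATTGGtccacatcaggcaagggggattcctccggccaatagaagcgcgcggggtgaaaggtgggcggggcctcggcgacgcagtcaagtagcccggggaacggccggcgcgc
The element begins 65 bases before the start in Hspa5, 212 and 107 bases before it in Hsp90b1, and 126 bases before it in Creld2. The 7 genes with the element had LKO log2 fold changes from -0.01 (Canx) to 0.45 (Hspa5), with a median of 0.26, against a median of 0.14 for the 26 without it. Creld2, a secreted ER stress protein, stood at 2.48, 2.41 and 7.58 CPM in LKO vehicle and at 6.65, 3.77, 2.95 and 7.05 CPM in LKO tunicamycin. Vehicle 3+4 was the highest of these, and the fitted change was 0.20 ± 0.50 in LKO (adjusted p = 0.919) against 2.13 ± 0.45 in WT. WT tunicamycin 1, 2 and 3 stood at 58.9, 13.3 and 49.6 CPM, against 8.32 to 10.8 CPM in WT vehicle. A match in these letters is a description and not a measured binding site.

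Among the 38 lists with more than 3 tested members, the highest median in the LKO liver was that of acute-phase genes, the hepatocyte genes for secreted plasma proteins that inflammation induces through IL-6 and STAT3. Of 29 tested members (of 30), 14 stood higher at an unadjusted p under 0.05 (48.3% against 5.83% of all genes) and none lower. For 14 the groups did not overlap in the higher direction (48.3% against 5.03%), and 28 had a fold change above 0. None passed adjustment. The list median log2 fold change was 1.01, and 1.997 in WT. The WT value rested on 2 of 3 samples: relative to WT vehicle, the list medians of WT tunicamycin 1, 2 and 3 were 2.06, 2.31 and 0.058, with Lcn2 at 364, 377 and 5.55 CPM.

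Saa3, a serum amyloid A made by several cell types, stood at 0.946, 5.83 and 2.07 CPM in LKO vehicle and 19.6, 16.2, 24.3 and 8.89 CPM in LKO tunicamycin (2.47 ± 0.61, adjusted p = 0.197, and 3.37 without vehicle 2). Cp, the copper carrier ceruloplasmin, stood at 414, 849 and 546 CPM against 1267, 1245, 1069.5 and 1086 CPM (0.95 ± 0.29, adjusted p = 0.247). In both genes vehicle 2 was the highest vehicle sample and still lay below every treated sample. The fibrinogen chains Fgg (1.01 ± 0.34) and Fgb (1.004 ± 0.337) showed the same order, with Fgg at 1196, 1617 and 847 CPM against 3046, 2787, 2239 and 1730.0 CPM.

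Vehicle 2 stood within or just below the treated range for some inducible members, which were chosen here after their values were seen. Saa2 stood at 60.6, 1751 and 274.5 CPM in LKO vehicle and 2581, 3236, 1359 and 1764 CPM in LKO tunicamycin. Vehicle 2 was thus above tunicamycin 3 and near tunicamycin 4, while the other vehicle samples were far lower. Saa2 shares near-identical sequence with Saa1, which stood at 66.4, 1183 and 209 CPM against 1496, 1975, 926 and 1155 CPM. Lcn2, an iron-siderophore binder, stood at 21.8, 285 and 32.5 CPM against 413, 482, 297 and 306 CPM, so that the groups only just separated, and Orm2 likewise had vehicle 2 at 324 CPM against 390 to 519 CPM in tunicamycin. A2m had the highest fitted fold of the list, 3.16 ± 1.16, yet tunicamycin 3 and 4, at 0.407 and 0.217 CPM, lay near the vehicle values of 0.118, 0.364 and 0.237 CPM.

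The count of acute-phase members higher at an unadjusted p under 0.05 was 19 without vehicle 2 in the fit on all groups and 23 without it in the fit on LKO samples alone. It was 23 without WT tunicamycin 3, 7 without vehicle 1 and 5 without vehicle 3+4. The per-sample medians over the list, relative to the mean of the LKO vehicle samples, were -0.36, 0.56 and -0.28 in vehicle and 1.32, 1.28, 0.99 and 0.71 in tunicamycin. Complement and coagulation genes had 5 of 37 higher (13.5% against 5.83% of all genes) and 2 lower (5.41% against 6.33%), led by C4bp (0.54 ± 0.20) and F11 (0.47 ± 0.17). That count of higher genes was 0 without vehicle 3+4, 1 without tunicamycin 1, 2 without vehicle 1 and 3 without tunicamycin 3. It was 9 without vehicle 2 and 10 without WT tunicamycin 3. Of 20 upstream IL-6, STAT3 and C/EBP genes, 1 stood higher, Stat3 (0.40 ± 0.18), and 2 lower, the receptor gene Il6ra (-0.56 ± 0.18) and Cebpa (-0.35 ± 0.15). These shares of 5% and 10% lie near the 5.83% and 6.33% of all genes.

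**Figure D3:**
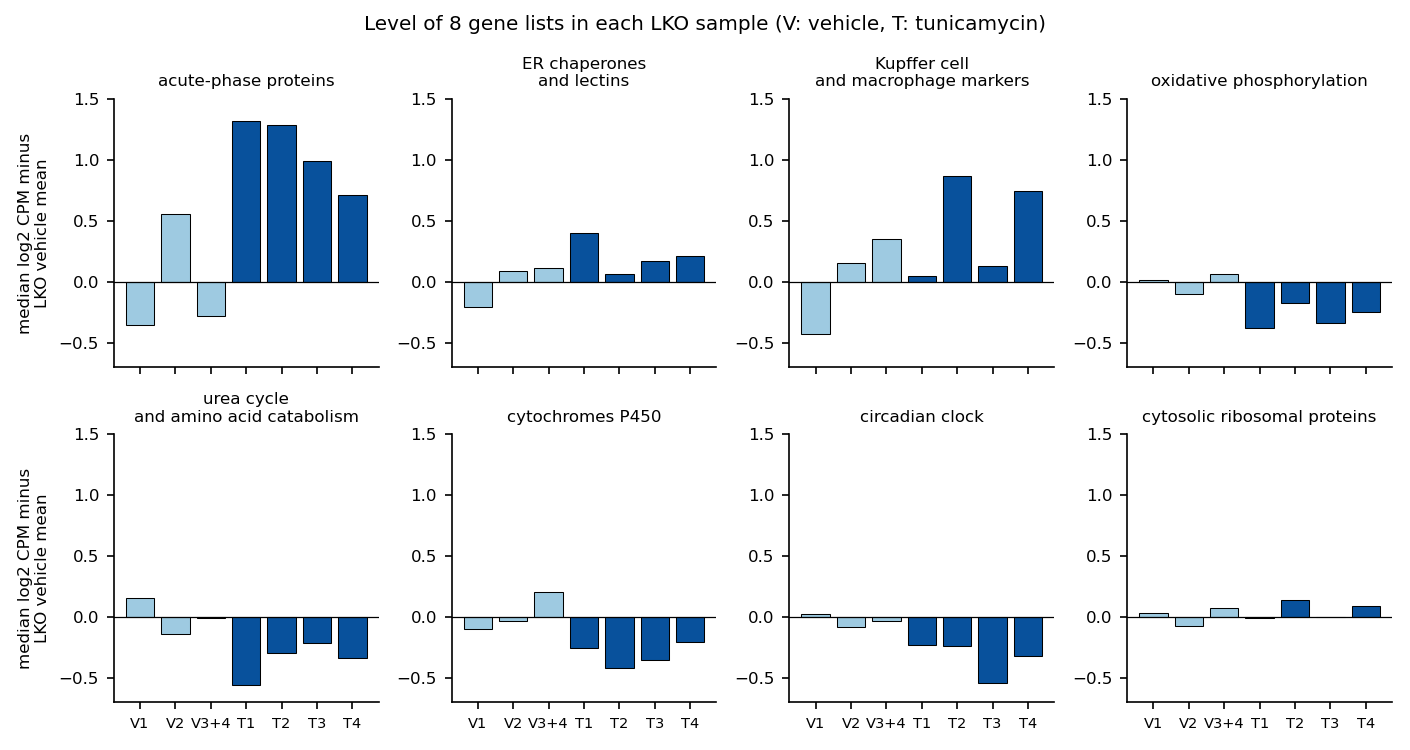
Median over the tested members of 8 gene lists of log2 CPM minus the mean of the LKO vehicle samples, for each LKO sample (V vehicle, T tunicamycin; equal axes). Acute-phase genes reach 1.32 in tunicamycin 1 and 0.56 in vehicle 2, and oxidative phosphorylation, urea cycle, cytochrome P450 and clock genes are below 0 in all 4 tunicamycin samples.

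Hepatocyte metabolism stood lower as a broad set of small differences. Of 68 tested subunits of oxidative phosphorylation, 28 stood lower at an unadjusted p under 0.05 (41.2% against 6.33% of all genes) and none higher. For 30 the groups did not overlap in the lower direction (44.1% against 6.55%), and 64 had a fold change below 0. The median was -0.28, and none passed adjustment. Sdhb, the iron-sulfur subunit of complex II, stood at 24.96, 24.0 and 30.0 CPM in LKO vehicle and 15.96, 16.8, 15.7 and 18.5 CPM in LKO tunicamycin (-0.66 ± 0.16, adjusted p = 0.196). Cox5b of complex IV (-0.51 ± 0.14), Atp5c1 of the ATP synthase (-0.52 ± 0.15) and Sdhc (-0.41 ± 0.13) lay close to it, and the groups separated in each. The count was 30 without vehicle 2, 40 without WT tunicamycin 3, 18 without tunicamycin 1, 17 without tunicamycin 3 and 15 without vehicle 3+4. In WT liver 15 of the 68 stood lower, against 6.86% of all genes, with a list median of -0.22. Relative to WT vehicle, the list medians of WT tunicamycin 1, 2 and 3 were -0.37, -0.41 and 0.08.

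Of 31 genes of the urea cycle and amino acid catabolism, 15 stood lower (48.4% against 6.33% of all genes) and none higher, with a median of -0.31. Asl, which makes arginine in the urea cycle, stood at 73.1, 49.3 and 69.7 CPM in LKO vehicle and 30.9, 41.8, 44.4 and 39.0 CPM in LKO tunicamycin (-0.71 ± 0.17, adjusted p = 0.175). Hpd of tyrosine breakdown (-0.62 ± 0.15), Ahcy of the methionine cycle (-0.57 ± 0.16) and Otc, which makes citrulline (-0.57 ± 0.17), followed it. The groups did not overlap in any of the 4. The count was 14 without vehicle 2 and 7 without vehicle 1.

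Of 38 tested cytochrome P450 genes (of 46), 15 stood lower (39.5% against 6.33% of all genes) and none higher, with a median of -0.36 and none past adjustment. Cyp2a5, a coumarin and nicotine hydroxylase, stood at 164, 127 and 279 CPM in LKO vehicle and 28.9, 39.4, 26.5 and 75.7 CPM in LKO tunicamycin, a 4.46-fold lower fitted level (adjusted p = 0.175). Cyp2f2, a marker of periportal hepatocytes, stood at 308, 300 and 326 CPM against 213, 180, 176 and 219 CPM. Both were lower in every treated sample. Cyp4a12b (-1.33 ± 0.31), whose reads can be confused with those of Cyp4a12a, and Cyp2c37 (-1.12 ± 0.30) completed the 4 with the lowest p. The count was 14 without vehicle 2 and 5 without vehicle 3+4.

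Further metabolic lists leaned the same way, and none of their members passed adjustment. Their shares of lower members were 27.6% to 30.6%, against 6.33% of all genes, and 5.83% of all genes stood higher. Fatty acid oxidation and PPARA targets had 11 of 36 lower and none higher, led by the acyl-CoA thioesterases Acot3 (-2.16 ± 0.70) and Acot1 (-1.91 ± 0.70), but 1 without vehicle 3+4 and 4 without tunicamycin 1 or tunicamycin 2. Vehicle 3+4 held the highest Acot1 level at 7.64 CPM, against 2.37 and 0.583 CPM in vehicle 1 and 2. Without it the fitted changes were -0.43 for Acot1 and -0.94 for Acot3, and Acot1 was at -2.58 without tunicamycin 3. Glucose production and glycogen genes had 7 of 25 lower, led by Ppp1r3b and the glucose-6-phosphate transporter Slc37a4 (-0.45 ± 0.15). The count was 1 without vehicle 3+4, 3 without tunicamycin 1 and 9 without vehicle 2. Bile acid genes had 7 of 23 lower and 1 higher, led by the conjugating enzyme Baat (-0.60 ± 0.14) and the transporter Slco1a4 (-1.25 ± 0.35). Baat stood at 55.2, 48.5 and 60.1 CPM in vehicle against 31.8, 34.6, 37.7 and 40.2 CPM in tunicamycin, and the bile acid count stayed between 5 and 8 in every fit without 1 sample. NRF2 and glutathione genes had 8 of 29 lower, led by Sod2 (-0.38 ± 0.10), with Gsta2 at -1.86 ± 0.59 (-0.98 without vehicle 3+4), a count that was 3 without vehicle 3+4 and 5 without tunicamycin 1. The single higher member was G6pdx, which feeds NADPH to glutathione reduction, at 1.18, 0.656 and 0.948 CPM against 1.995, 2.34, 2.14 and 2.28 CPM (1.26 ± 0.28, adjusted p = 0.175).

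Lipid synthesis showed less, set beside 5.83% of all genes higher and 6.33% lower in LKO and 6.86% lower in WT. Of 25 lipogenic genes 2 stood lower, Dgat2 (-0.32 ± 0.12) and Thrsp (-1.24 ± 0.55), and 1 higher, Insig2 (0.40 ± 0.18), where WT had 12 lower. Relative to WT vehicle, the lipogenic medians of WT tunicamycin 1, 2 and 3 were -0.80, -0.55 and -0.07. Of 24 cholesterol synthesis genes 21 had a fold change above 0, against 50.8% of all genes, with a median of 0.34. Only Dhcr7 (0.52 ± 0.24) had an unadjusted p under 0.05, and the groups overlapped for every member. Per-sample medians of this list, relative to the LKO vehicle mean, were 0.04, 0.45 and -0.40 in vehicle. In tunicamycin they were 0.43, 0.58, 0.01 and 0.35, so vehicle 2 lay above tunicamycin 1, 3 and 4. Among 26 apolipoprotein and fatty acid binding genes, 13 had a fold change above 0 and 13 below, with a median of -0.003. The groups did not overlap for 3 higher members (11.5% against 5.03% of all genes) and 5 lower (19.2% against 6.55%). At an unadjusted p under 0.05 Fabp5 rose, and 5 stood lower, led by the fatty acid transporter Slc27a5 (-0.34 ± 0.12) and Apoc1 (-0.47 ± 0.17). That count was 1 without vehicle 3+4, 2 without tunicamycin 1 and 3 without tunicamycin 2.

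**Figure D4:**
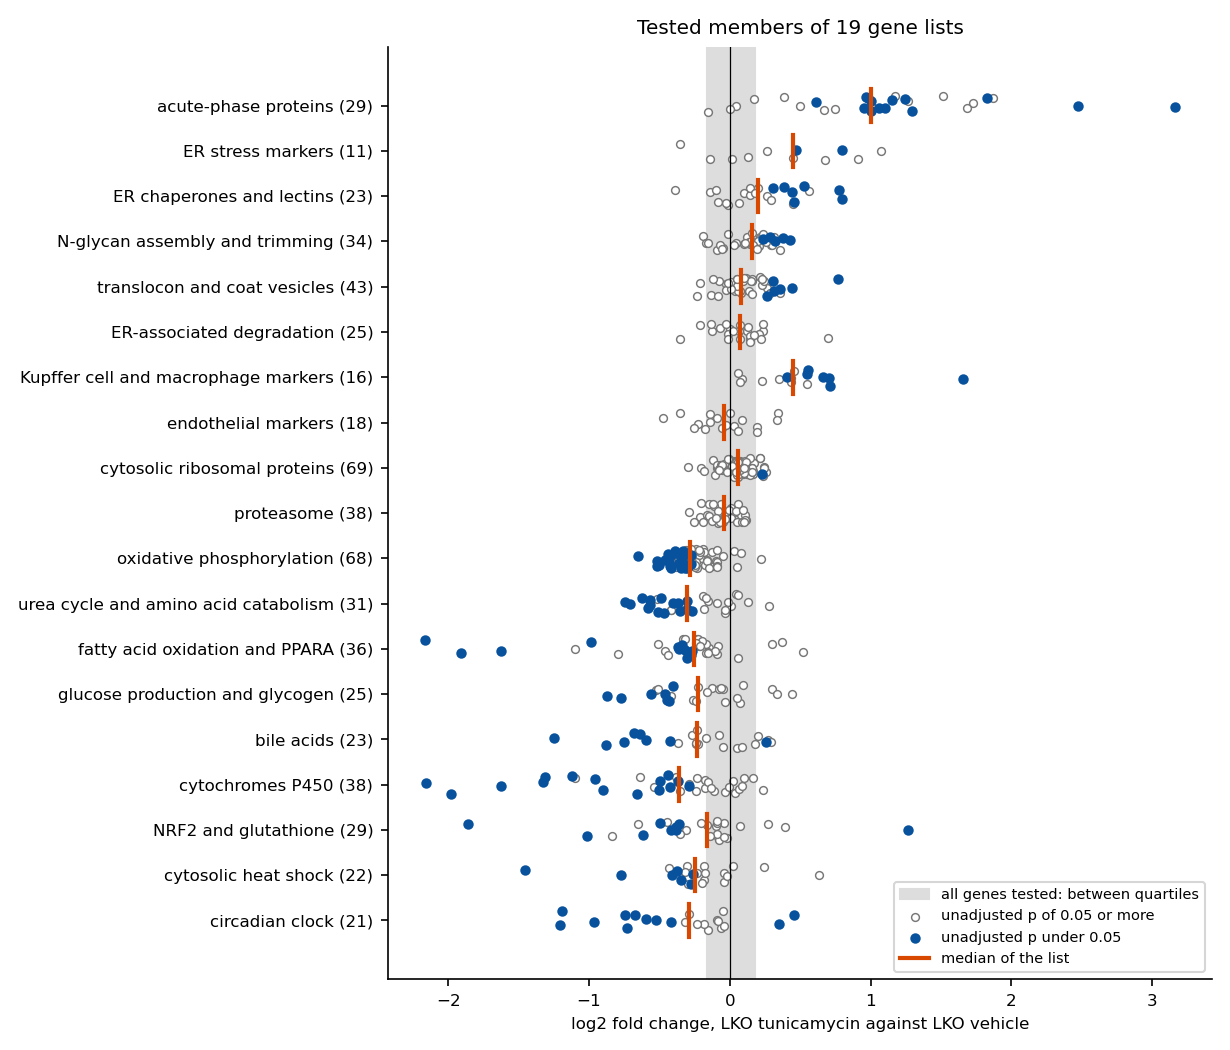
Log2 fold change of LKO tunicamycin against LKO vehicle for every tested member of 19 gene lists (number tested in brackets), filled where the unadjusted p is under 0.05, with the list median as a bar and the range between the quartiles of all genes in grey. Acute-phase members lie to the right around a median of 1.01, and the metabolic and clock lists lie to the left, down to -2.16.

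Circadian clock genes stood lower with the least dependence on single samples. Of 21 tested genes (of 23), 9 stood lower (42.9% against 6.33% of all genes) and 2 higher (9.52% against 5.83%) at an unadjusted p under 0.05. The list median was -0.29, and the 9 remained a count of 9 in each fit without 1 sample. Livers were taken at 1 time of day, so a shift in phase and a change in level cannot be told apart. Hlf, a transcription factor driven by the clock, stood at 23.2, 20.3 and 20.8 CPM in LKO vehicle and 12.9, 15.98, 12.4 and 15.4 CPM in LKO tunicamycin (-0.59 ± 0.12, adjusted p = 0.175). Ciart, a clock repressor, stood at 5.80, 3.43 and 5.04 CPM against 1.86, 2.08, 1.32 and 2.93 CPM (-1.19 ± 0.25, adjusted p = 0.175). The groups separated in both, and tunicamycin 3 was the lowest sample in each. Usp2 (-1.21 ± 0.27) and Per2, a core repressor (-0.74 ± 0.17), also had tunicamycin 3 lowest, at 4.17 and 4.07 CPM. The higher members, chosen after their values were seen, were Clock (0.35 ± 0.16) and Nr1d1, which encodes the repressor REV-ERBα (0.46 ± 0.20, against -0.52 ± 0.24 in WT).

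E-boxes, the sites that CLOCK and BMAL1 are known to bind, lay in the windows of 6 of 16 clock genes that had one, and in 6.02% of all RefSeq windows. The window of Ciart held 3, in capitals, and is shown as chr3:95882258-95882478 on the minus strand, 221 bases that stop at the annotated edge of the gene.
Ciart: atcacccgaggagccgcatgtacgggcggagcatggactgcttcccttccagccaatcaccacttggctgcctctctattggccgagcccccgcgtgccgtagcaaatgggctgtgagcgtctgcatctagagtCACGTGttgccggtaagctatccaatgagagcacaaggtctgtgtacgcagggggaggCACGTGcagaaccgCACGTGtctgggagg
Per1 and Tef also carried an E-box, with LKO log2 fold changes of -0.18 and -0.41, as did Cry1 (-0.96), Bhlhe41 (-0.05) and Tspan4 (-0.04). The 6 had a median of -0.30 against -0.19 for the other 10.

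Immediate-early and glucocorticoid-response genes, the group of Dusp1, had 7 of 24 lower (29.2% against 6.33% of all genes) and 1 higher (4.17% against 5.83%). The list as a whole was near balance, with 11 members above 0, 13 below and a median of -0.09. Its per-sample medians, relative to the LKO vehicle mean, were -0.02, -0.25 and 0.20 in vehicle and -0.03, -0.11, 0.03 and -0.19 in tunicamycin. Klf10 stood at 6.39, 5.61 and 7.88 CPM in LKO vehicle and 3.99, 2.08, 1.93 and 4.34 CPM in LKO tunicamycin (-1.12 ± 0.26, adjusted p = 0.175). The survival kinase gene Pim3 followed (-0.69 ± 0.21), and Myc was the higher one (0.94 ± 0.32). The count of lower members was 3 without vehicle 3+4, 4 without tunicamycin 3 and 8 without vehicle 2.

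Markers of other liver cells were set beside these results. In bulk tissue a change in the number of cells of a type and a change in RNA per cell cannot be told apart. All 16 tested Kupffer cell and macrophage markers (of 20) had a fold change above 0 in LKO liver, with a median of 0.45. Of these, 7 stood higher at an unadjusted p under 0.05 (43.8% against 5.83% of all genes), and 1 had groups that did not overlap (6.25% against 5.03%). Per-sample list medians, relative to the LKO vehicle mean, were -0.43, 0.16 and 0.35 in vehicle and 0.05, 0.86, 0.13 and 0.75 in tunicamycin. The WT median fold change was 0.16, with no marker at an unadjusted p under 0.05. The summed level of the 20 markers was 154 to 219 CPM in LKO vehicle and 202 to 292 CPM in LKO tunicamycin, and the groups overlapped. Marco, a scavenger receptor of resident macrophages, stood at 3.79, 4.08 and 2.25 CPM against 2.53, 20.7, 6.71 and 12.03 CPM. Tunicamycin 2 and 4 were the highest, and tunicamycin 1 lay inside the vehicle range. C1qa, a complement gene made by macrophages, stood at 3.19, 5.39 and 6.28 CPM against 6.52, 10.8, 7.32 and 9.00 CPM (0.71 ± 0.22, adjusted p = 0.247). The defining Kupffer genes were present in every group, with Clec4f at 6.39 to 12.7 CPM in vehicle and 10.2 to 17.1 CPM in tunicamycin. The count of 7 was 2 without vehicle 1, 2 without tunicamycin 2, 2 without tunicamycin 4, 4 without vehicle 2 and 3 when scaled without Rn45s. The part of these cells in the rise of Fabp5, which macrophages express, and in Saa3 was not tested.

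Cell-division genes leaned with the same samples. The helicase genes Mcm3 (1.26 ± 0.45), Mcm4 (0.89 ± 0.40), Mcm2 (1.11 ± 0.51) and the cyclin gene Ccnd1 (0.55 ± 0.26) stood higher at an unadjusted p under 0.05 among 13 tested genes (30.8% against 5.83% of all genes). Mcm3 stood at 1.30, 1.31 and 1.24 CPM in LKO vehicle and 1.86, 4.68, 1.42 and 4.44 CPM in LKO tunicamycin, so tunicamycin 2 and 4 were again the high ones. The count of 4 was 0 without tunicamycin 4, 1 without tunicamycin 2, vehicle 1 or vehicle 2, and 2 without WT vehicle 2.

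Neutrophil genes were low. S100a9 stood at 0.237, 0.292 and 0.178 CPM in LKO vehicle and 1.06, 1.43, 1.93 and 1.30 CPM in LKO tunicamycin (2.58 ± 0.70, adjusted p = 0.215). The groups did not overlap for S100a9. S100a8 had a fitted 1.57 ± 0.65 with groups that overlapped, and 2.55 without vehicle 2. Of 19 lymphocyte and neutrophil markers only 3 were tested. The summed level of the 19 was 7.05 to 8.53 CPM in vehicle and 10.2 to 13.6 CPM in tunicamycin, without overlap. That sum includes S100a9 and S100a8, the latter at 1.46, 4.42, 1.83 and 1.84 CPM in tunicamycin, so it is not a separate result. The level of the other markers alone was not tested. Stellate cell markers had 3 of 14 higher (21.4% against 5.83% of all genes), led by Rgs5 (0.61 ± 0.21), and none with groups that did not overlap. The count of 3 was 1 without any of vehicle 1, vehicle 2 or tunicamycin 4. Their summed levels were 214 to 258 CPM in vehicle and 226 to 283 CPM in tunicamycin. None of 18 endothelial markers had an unadjusted p under 0.05, with sums of 159 to 243 and 165 to 206 CPM. Summed hepatocyte markers were 27134 to 32583 CPM in vehicle and 26688 to 35597 CPM in tunicamycin, and 10 bile duct markers, with Tff2 at 0 in all LKO samples, summed to 21.3 to 60.9 and 39.2 to 116 CPM.

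**Figure D5:**
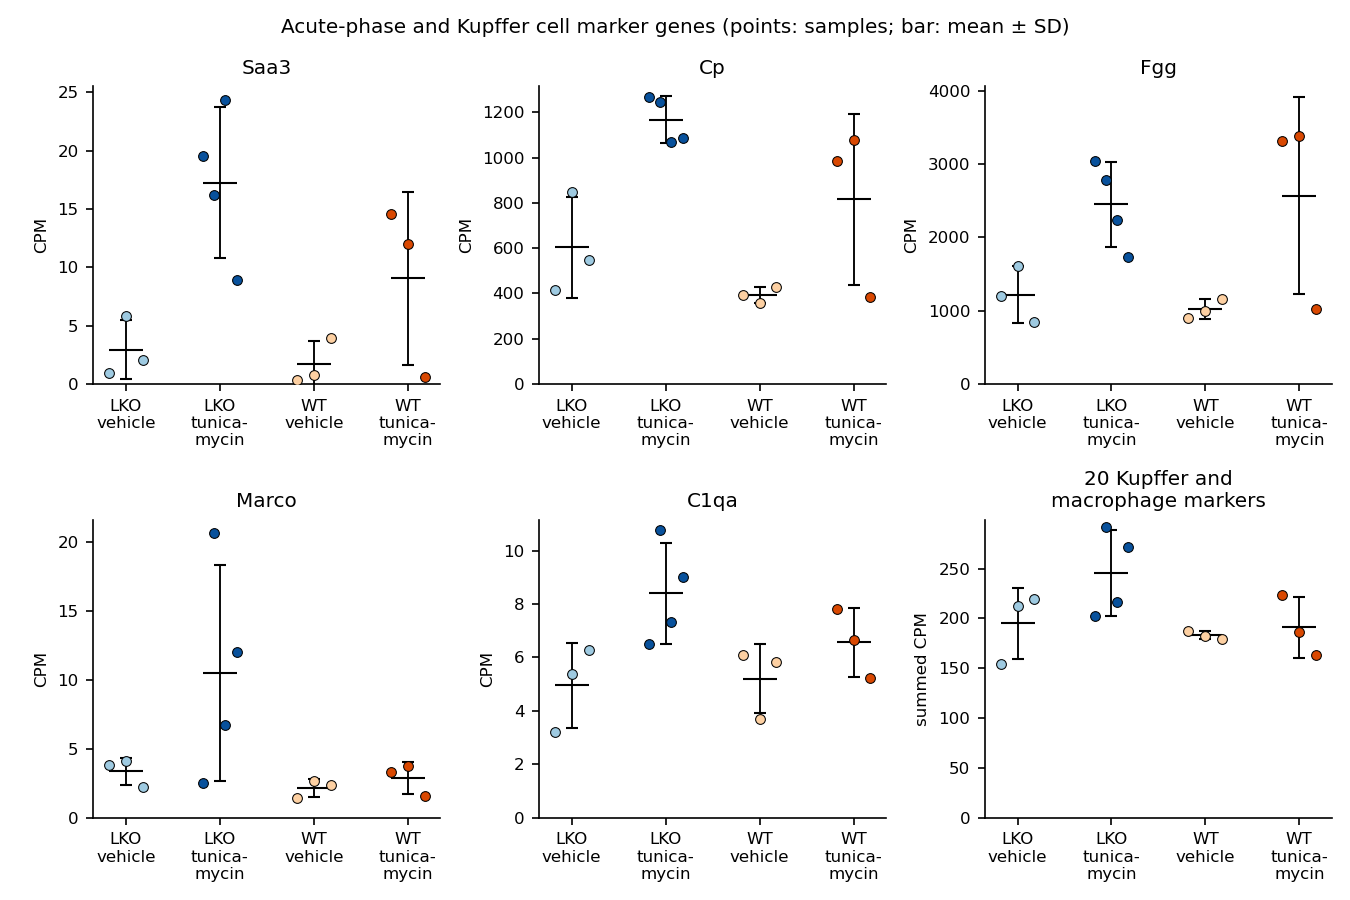
CPM (linear axes from 0) of 3 acute-phase genes, 2 Kupffer cell genes and the sum of 20 Kupffer and macrophage markers in each sample of the 4 groups, with the mean and SD. LKO vehicle 2 is the highest vehicle sample for Saa3, Cp and Fgg, and Marco is above 10 CPM only in LKO tunicamycin 2 and 4.

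Lists with no lean of this size are set beside 5.83% of all genes higher and 6.33% lower. The cytosolic ribosomal proteins had 1 of 69 higher (Rps12, 0.23 ± 0.11) and a median of 0.06. Among 18 subunits of the H3K4 methyltransferase complexes, Dpy30, a core partner of RBBP5, stood lower (-0.42 ± 0.19) and none stood higher. Of 38 interferon and antigen presentation genes 4 stood higher, led by the RNA sensor gene Ddx58 (0.48 ± 0.15), and 1 lower. The count of higher members was 1 without vehicle 3+4 or tunicamycin 4 and 2 without vehicle 1, tunicamycin 2 or tunicamycin 3. Of 17 genes of the growth hormone and IGF1 axis 2 stood lower, the receptor gene Ghr (-0.40 ± 0.14) and Igfbp3 (-0.72 ± 0.33). Of 41 tRNA synthetase and initiation factor genes 4 stood higher, led by Eif1a (0.52 ± 0.14), and 1 lower, with 2 higher without vehicle 1 or tunicamycin 3 and 2 when scaled without Rn45s.

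The treated LKO samples also varied among themselves. The genes with the highest SD of log2 CPM among the 4 included the male urinary proteins Mup7 and Mup14, which belong to a family of near-identical copies. Mup7 stood at 165, 324, 38.0 and 225 CPM in tunicamycin and at 154, 347 and 119 CPM in vehicle. Cyp3a11, a major drug-metabolising P450, stood at 669, 216, 928 and 1381 CPM in tunicamycin. The remaining ones were Hsd17b6, at 44.0, 7.02, 20.5 and 9.97 CPM, and Csad of taurine synthesis, at 19.7, 6.63, 37.2 and 21.2 CPM. None of the 5 had an unadjusted p under 0.05 for tunicamycin.

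Set beside WT liver, whose samples are separate from the LKO samples, most LKO differences had the same direction. Of the 562 genes higher in LKO at an unadjusted p under 0.05, 468 (83.3%) also had a WT fold change above 0, as did 51.7% of all genes tested. At that threshold 193 were higher in WT too, which is 34.3% of the LKO genes, against 7.92% of all genes, and 25.3% of the WT genes. Of the 610 lower genes, 516 (84.6%) had a WT fold change below 0. At that threshold 223 were lower in WT, which is 36.6% of the LKO genes, against 6.86% of all genes, and 33.7% of the WT genes. Opposite directions at that threshold in both genotypes were found for 7 and 3 genes. Of the 35 genes called in WT (0 to 615 when 1 sample was left out), 34 had the same sign in LKO. With that sign, 15 had an unadjusted p under 0.05 in LKO, against 12.2% of all genes in either direction. The 35 were chosen on their WT values.

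By the test of the difference between genotypes, the genes most positive in LKO were Dazap1, Ocln, Nfat5, Pdlim5 and Cox20, and the most negative were Inhbe, Pdia4, Hist1h1e, Dnajb11 and Hsp90b1, none past adjustment (adjusted p = 0.937). Ocln, the tight-junction gene for occludin, stood at 6.74, 5.39 and 6.69 CPM in LKO vehicle and 8.25, 8.96, 10.7 and 9.21 CPM in LKO tunicamycin. Every treated sample was higher, with a fitted LKO change of 0.57 ± 0.19 against -0.65 in WT (difference 1.22 ± 0.30, unadjusted p = 0.000870). Inhbe, which encodes the hepatokine activin E, stood at 8.04, 11.3 and 7.46 CPM in LKO vehicle and 5.19, 6.63, 5.09 and 8.35 CPM in LKO tunicamycin, with an overlap (-0.50 ± 0.21). In WT it stood at 9.68, 7.80 and 6.26 CPM in vehicle and 16.9, 11.5 and 12.6 CPM in tunicamycin (difference -1.28 ± 0.31, unadjusted p = 0.000656). Dnajb11, a BiP cofactor, stood at 18.6, 23.6 and 20.7 CPM in LKO vehicle and 31.3, 23.3, 23.5 and 26.2 CPM in LKO tunicamycin (0.31 ± 0.13), and rose by 1.02 ± 0.14 on the log2 scale in WT (adjusted p = 0.00717).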

How the data were processed

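Polyadenylated RNA of mouse liver, per the labels, was sequenced from 14 libraries. The deposited count files follow the layout of STAR, per the file headers, with 1 whole number a gene in columns that ignore strand, take the gene's strand or take the opposite strand. The second column was used, which held 99.5% to 99.6% of stranded gene reads in the LKO libraries. A deposited table holds FPKM values for the same libraries, used only as an alternative. The submitters' processing notes name Trimmomatic, STAR, Cufflinks and mm10. Versions, filters and the annotation are not given in the sources used here.

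Counts were tested with edgeR 4.0.16 (quasi-likelihood) in R 4.3.3 over all 4 groups, with TMM scaling, filterByExpr, LKO vehicle 3 and 4 summed and no covariates. Genes with a Benjamini-Hochberg adjusted p under 0.05 were called. The SE is the fold change divided by the square root of F. Lists received no test: members were counted at an unadjusted p under 0.05 beside the count over all genes. The procedure was tested on simulated data, with changes placed in genes of mean log2 CPM of at least 2. It called 49 of 50 genes with a true fold of 2 and 41 of 50 with 0.5. All 50 were called at a fold of 4 and all 50 at 0.25, with 15 false calls. Alternatives were DESeq2 1.42.0, limma 3.58.1 on log2 of FPKM plus 1 or 0.1, other scalings, filters, columns and samples left out. The members and the 40 gene lists were chosen with earlier results of these data known.

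Genes were named by rule: those called, the 12 per direction with the lowest p among genes of mean log2 CPM of at least 2 whose groups did not overlap, Rbbp5 and the ER stress markers, up to 4 per list by p, 5 per direction by the difference between genotypes, and the 5 most variable. Other genes named (Saa1, Saa2, Lcn2, Orm2, A2m, Slc13a5, Car3, Clock, Nr1d1, Per1, Tef, Cry1, Bhlhe41, Tspan4, Canx, Creld2 and Clec4f) were chosen after their values were seen. Positions and promoter windows are from RefSeq, GRCm38.p6, which is the mm10 build, and 187 of 191 named genes matched it.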

Additional observations from a re-analysis of the deposited data

Results flagged for a closer look

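In the group of 4 LKO tunicamycin samples, 13 of 191 named genes had 1 sample whose gap to its nearest neighbour, as a share of the whole range, was above Dixon's critical value at 95%. Chance flags about 1 in 20 groups. Tunicamycin 2 was the sample apart for 5 genes. It was highest for the ER reductase gene Dnajc10 at 19.7 CPM (the other samples 15.2 to 15.6), for the ER degradation gene Selk at 12.2 CPM (11.4 to 11.5) and for the neutrophil gene S100a8 at 4.42 CPM (1.46 to 1.84). It was lowest for the ER stress gene Herpud1 at 53.8 CPM (65.2 to 67.4) and for the respiratory chain gene Cox5b at 10.4 CPM (12.1 to 12.4).

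Tunicamycin 4 was highest for the growth hormone receptor gene Ghr at 187 CPM (154 to 155), the heat shock cofactor gene Ahsa1 at 7.70 CPM (7.02 to 7.12), the endothelial gene Tie1 at 2.17 CPM (1.53 to 1.60) and Pdlim5 at 22.7 CPM (20.5 in each of the others). Tunicamycin 1 was highest for Gabbr2 at 15.3 CPM (13.5 to 13.7) and for Stt3b, a catalytic subunit of N-glycan transfer, at 40.4 CPM (34.9 to 35.4). Tunicamycin 3 was highest for the thioesterase gene Acot1 at 1.93 CPM (0.520 to 0.665) and lowest for the ribosomal protein gene Rpl3 at 21.7 CPM (28.9 to 30.2).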

How the results depend on the processing

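The LKO calls numbered 3 in the main analysis, 0 to 67 when 1 sample was left out, 153 without a filter on low counts, 35 with DESeq2, 5 with all 14 libraries as separate samples, and 0, 0 and 1 on FPKM (pseudocount 1 filtered, 0.1 filtered, 1 unfiltered). A fit on the LKO samples without vehicle 2, added after seeing the data, gave 133. With a replicate block the LKO calls numbered 5, of which Dusp1 and Fabp5 were shared with the main analysis. Same-numbered LKO libraries correlated at 0.034, 0.119, 0.036 and 0.158, so the numbers were not taken as pairs. The WT calls numbered 35, and 0 to 615 when 1 sample was left out, 289 without a filter, 150 with DESeq2, 56 with 14 libraries, 54 unstranded, 69 without LKO vehicle 3+4, and 3, 6 and 0 on FPKM. The difference between genotypes had 0 calls, and 0 to 2 when 1 sample was left out, the 2 without WT tunicamycin 3. The lower Rbbp5 level under tunicamycin passed without a filter, at -0.91 (adjusted p = 0.0333). Xbp1 was -0.029 without LKO vehicle 3+4 and Ddit3 was -0.091 to 1.095 when 1 sample was left out, -0.091 without LKO tunicamycin 3 and 0.915 without LKO tunicamycin 2. Dusp1, Fabp5 and Gabbr2 kept their direction in every alternative run, and lost the call in 7, 9 and 8 of 13 fits without 1 sample. On FPKM the genes higher at an unadjusted p under 0.05 numbered 155 and 149 with the filter, and those lower 452 and 449. The causes were not tested. Depth limits the low genes: Ddit3, A2m and S100a9 rest on few reads a sample.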
